A study of Homo sapiens with 30 samples.

Results

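The 10 genes described here belong to the HIF oxygen-sensing pathway and were followed through 30 RNA-seq libraries of PANC-1 tumoroids: HIF1A, EPAS1, EGLN1, EGLN3, VHL, BNIP3, BNIP3L, NDRG1, ADM and DDIT4. They were taken by name as components or direct targets of the pathway and are 10 of the 60483 gene records in each library. The choice was made with earlier results of these data known, so their counts beside those of all genes are descriptions. All 10 passed the filter on low counts, as did 18424 genes in total. PANC-1 is an established cell line from a human pancreatic ductal adenocarcinoma, used here in its wild-type form. In hybrid tumoroids the cells assembled together with DSLBs, synthetic cells made of oil droplets with a supported lipid bilayer around them.

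HIF transcription factors pair an oxygen-regulated alpha subunit, HIF-1α or HIF-2α, with a constitutive partner. In oxygenated cells the EGLN prolyl hydroxylases mark the alpha subunit, and the VHL ubiquitin ligase then has it destroyed, so that HIF activity is set mainly at the protein level. When hydroxylation fails, the alpha subunit accumulates and raises genes for glycolysis, mitophagy and vessel growth as well as EGLN genes themselves, which closes a feedback loop.

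The 10 groups held 3 libraries each, numbered in the labels as biological replicates, and no source used here says whether they came from separate passages, so the spread between them may be partly technical. DSLB-free tumoroids received no DSLBs, and plain DSLB hybrids received DSLBs with no protein. In the other 8 groups the DSLBs carried recombinant ectodomains, either PD-1 alone or PD-1 paired with one other protein (TIGIT, LAG3, ICOS, CTLA4, CD40L, CD27 or CD2), and these are called protein-bearing. All cultures were seeded in 1% FBS, from 50000 to 100000 cells by the labels and from the upper of these numbers by the study's sequencing methods, and libraries were made from 150 ng of total RNA. Because every protein-bearing group carried PD-1, the presence of PD-1 and the presence of any coupled protein cannot be told apart.

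RefSeq promoter windows of GRCh38.p14 were at hand for 7 members and are shown for 5 of them, 4 whose levels, given further on, did not overlap between controls and protein-bearing hybrids, and EGLN3, which had no match. Each line gives the 250 bases before the start of transcription on the gene's own strand, and capitals mark the letters of the HIF response element core, ACGTG or GCGTG, on either strand. VHL, BNIP3L and NDRG1 are named only.
BNIP3: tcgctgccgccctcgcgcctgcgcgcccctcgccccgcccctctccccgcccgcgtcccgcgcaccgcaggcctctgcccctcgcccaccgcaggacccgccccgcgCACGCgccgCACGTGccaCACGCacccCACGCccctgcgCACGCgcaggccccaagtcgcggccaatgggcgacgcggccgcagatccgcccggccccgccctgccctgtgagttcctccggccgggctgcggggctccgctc
DDIT4: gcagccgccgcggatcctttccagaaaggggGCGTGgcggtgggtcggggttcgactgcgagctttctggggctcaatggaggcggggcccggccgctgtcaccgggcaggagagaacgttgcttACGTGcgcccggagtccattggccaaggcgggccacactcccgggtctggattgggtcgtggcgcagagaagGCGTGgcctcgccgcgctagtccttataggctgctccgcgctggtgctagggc
EGLN1: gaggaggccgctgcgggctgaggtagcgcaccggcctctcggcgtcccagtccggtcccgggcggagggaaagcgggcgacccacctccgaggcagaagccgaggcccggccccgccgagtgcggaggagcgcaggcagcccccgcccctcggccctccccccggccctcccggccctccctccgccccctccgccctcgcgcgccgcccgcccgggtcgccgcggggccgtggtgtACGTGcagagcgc
HIF1A: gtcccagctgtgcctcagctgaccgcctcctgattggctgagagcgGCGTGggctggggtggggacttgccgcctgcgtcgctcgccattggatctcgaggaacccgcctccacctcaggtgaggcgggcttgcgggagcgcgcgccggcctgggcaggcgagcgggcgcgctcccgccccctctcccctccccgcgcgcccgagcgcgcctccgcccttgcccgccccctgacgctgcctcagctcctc
EGLN3: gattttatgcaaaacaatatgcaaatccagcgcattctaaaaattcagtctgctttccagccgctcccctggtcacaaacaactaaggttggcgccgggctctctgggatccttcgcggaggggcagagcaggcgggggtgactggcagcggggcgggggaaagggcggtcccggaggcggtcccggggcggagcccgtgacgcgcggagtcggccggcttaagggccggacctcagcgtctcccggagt

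These windows lie at chr10:131981924-131982173 (minus strand) for BNIP3, chr10:72273674-72273923 (plus strand) for DDIT4, chr1:231422288-231422537 (minus strand) for EGLN1, chr14:61695263-61695512 (plus strand) for HIF1A and chr14:33951075-33951324 (minus strand) for EGLN3. BNIP3 had 6 matches, of which 2 were the same CACGTG read from both strands and overlapped, and 4 were GCGTG. DDIT4 had 1 ACGTG, 125 to 121 bases before the start, and 2 GCGTG. EGLN1 had a single ACGTG, 13 to 9 bases before the start, and HIF1A, ADM and EPAS1 had a single GCGTG each. A further HIF1A window in the table, at chr14:61697462-61697711, had none. Of all 35116 windows in the RefSeq table, 18.5% held ACGTG and 43.2% held ACGTG or GCGTG. A match describes the letters of the window and does not show that a factor bound there.

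Library depth, as the total of expected counts, ran from 21.9 to 60.5 M (median 40.6 M). PD-1/LAG3 replicate 3, DSLB-free replicate 2, PD-1 replicate 1 and PD-1/CTLA4 replicate 2 stood apart from both other libraries of their group. The chi-square per gene between PD-1/LAG3 replicate 3 and its 2 neighbours was 85.7 and 85.6, against 9.82 between those neighbours. For PD-1/CD40L replicate 3 it was 26.0 and 16.4, against 6.73 between its neighbours. The PD-1/CD2 libraries all differed from each other, at 29.5 to 38.4. Epithelial markers were abundant as a sum in all libraries. Of the 3 ductal markers, KRT19 and SOX9 had median TPM values of 1289 and 41.1, whereas CFTR had 0.01. All cultures held a single cell line, and bulk samples cannot tell fewer cells expressing a gene from less RNA per cell. Leukocyte markers summed to at most 1.44 CPM of the unscaled library and endothelial markers to at most 0.566.

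All values below are CPM, a gene's counts scaled to a common TMM library size, unless TPM is named. A gene was called where edgeR's quasi-likelihood test, one model of all 30 libraries, gave a Benjamini-Hochberg adjusted p under 0.05. Per transcript length the members spanned a wide range of abundance. DDIT4 was the most abundant, with a median of 266 TPM over the 30 libraries, followed by ADM (198), BNIP3 (176) and NDRG1 (163). BNIP3L (79.5), HIF1A (46.9), EGLN1 (43.1), VHL (30.2) and EPAS1 (17.8) were intermediate, and EGLN3 was lowest at 5.19 TPM.

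The first question was whether any member differed among the 10 groups at all. The omnibus test called 9 of the 10 members, where it called 41% of all genes tested. NDRG1 and BNIP3 had the smallest adjusted p-values, 1.04e-10 and 1.39e-10, and ranked 65 and 69 of the 18424 genes. VHL was the exception, with an adjusted p = 0.0547.

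The change fell between controls without protein and hybrids with it. In 6 members, HIF1A, EGLN1, BNIP3, BNIP3L, NDRG1 and DDIT4, the 24 protein-bearing libraries did not overlap the 6 control libraries, where 9.55% of all genes were separated in this way. Of these, 5 were above the controls (4.43% of all genes) and HIF1A was below them (5.11% of all genes). EPAS1, EGLN3, VHL and ADM overlapped. On the TPM scale, which also corrects for transcript length, EGLN3 no longer overlapped while EGLN1 and BNIP3L did.

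**Figure D1:**
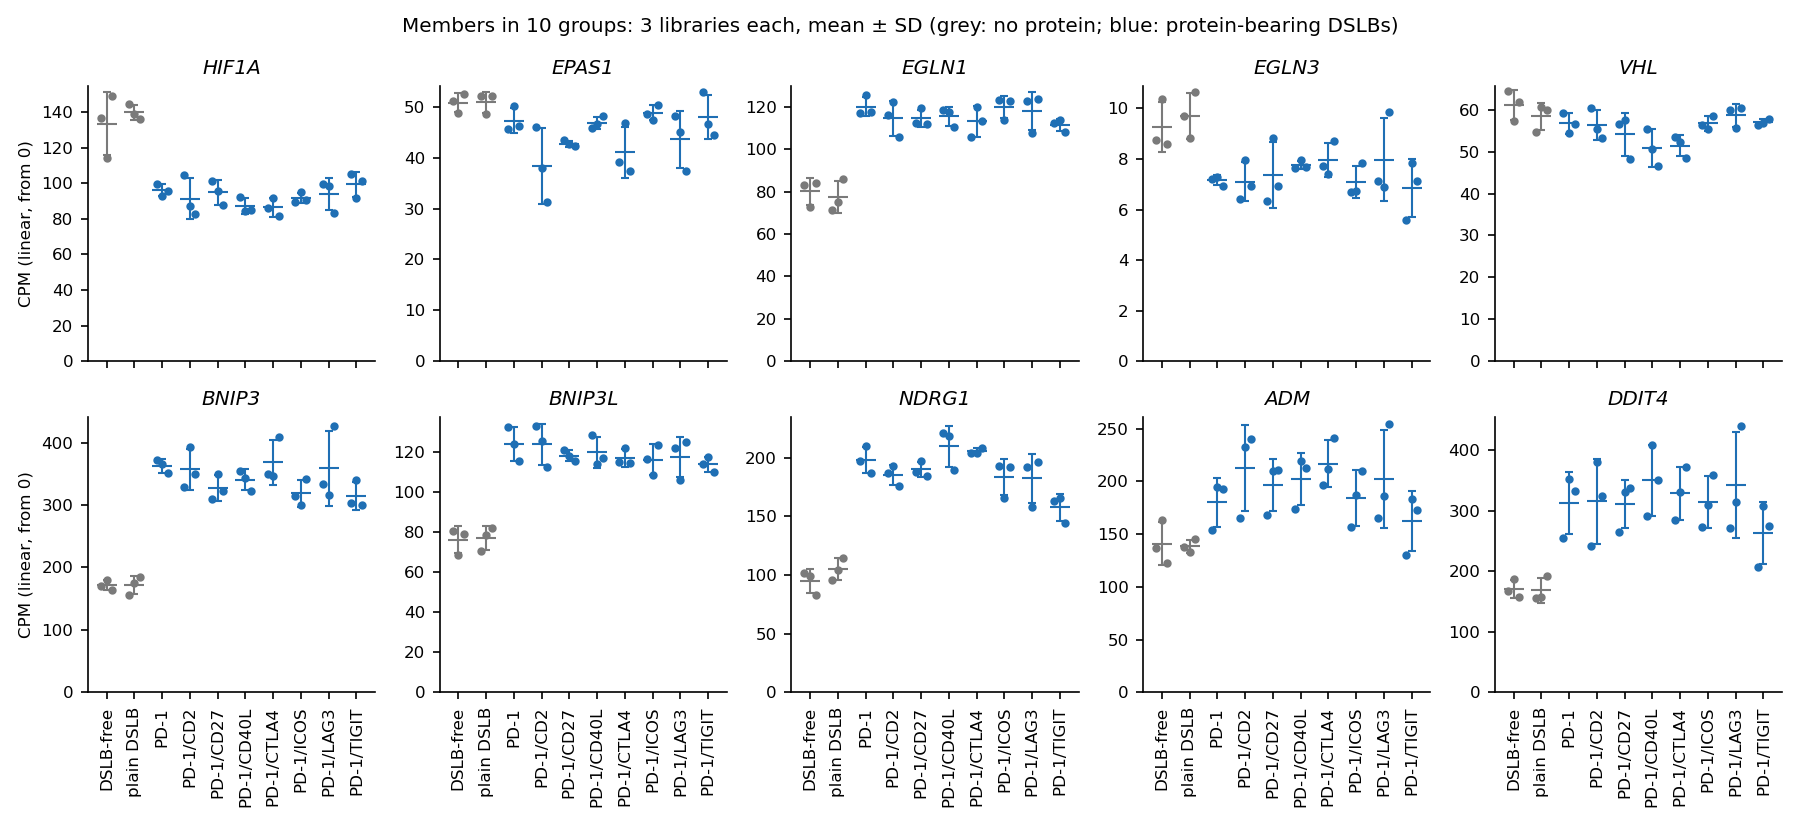
Levels of the 10 members in CPM (vertical axes, linear from 0) in 10 groups on the horizontal axis. Points are libraries, 3 per group, with the mean as a bar and the SD as whiskers, in grey for DSLB-free and plain DSLB groups and in blue for the 8 protein-bearing groups. BNIP3 sits between 156 and 184 CPM in grey and between 300.4 and 427 CPM in blue, while HIF1A sits between 114 and 149 CPM in grey and between 81.4 and 105 CPM in blue.

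HIF1A encodes HIF-1α, the oxygen-regulated subunit of HIF-1, and lies at chromosome 14, 61695513 to 61748259 (GRCh38, plus strand). It measured 137, 114 and 149 CPM in DSLB-free tumoroids and 144, 139 and 136 CPM in plain DSLB hybrids. With PD-1 alone it measured 99.7, 92.7 and 95.9 CPM, and over the 24 protein-bearing libraries it ran from 81.4 through a median of 92.1 to 105 CPM. Every protein-bearing library was therefore below the lowest control library. Against plain DSLB hybrids HIF1A fell in all 8 comparisons, by 0.54 on the log2 scale with PD-1 alone (standard error 0.0894, edgeR adjusted p = 6.54e-05). Its log2 fold change was −0.69 with PD-1/CTLA4, the lowest, and −0.49 with PD-1/TIGIT, the highest. Its expected counts, like those of BNIP3, were not whole numbers in any of the 30 libraries, so some of their reads are shared with other gene records.

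EPAS1, which encodes HIF-2α and lies at chromosome 2, 46293667 to 46386697, moved less. It measured 51.1, 48.8 and 52.4 CPM without DSLBs, 52.2, 48.5 and 52.0 CPM with plain DSLBs and 45.5, 50.2 and 46.1 CPM with PD-1 alone. Of the 24 protein-bearing libraries 20 were below the lowest control, and 1, PD-1/TIGIT replicate 1 at 52.9 CPM, was above the highest. EPAS1 was called lower with PD-1/CD2 (log2 fold change −0.40, edgeR adjusted p = 0.00333, standard error 0.101) and with PD-1/CTLA4 (−0.31, adjusted p = 0.0198). The PD-1/CD2 libraries spread widely, at 46.1, 37.9 and 31.2 CPM. The PD-1/CTLA4 call was lost without plain DSLB replicate 1 or 3 or PD-1/CTLA4 replicate 1 or 3, with log2 fold changes from −0.29 to −0.26. In the other 6 comparisons its log2 fold change lay between −0.25 and −0.06 and did not pass. The number of calls depended on the correction for transcript length. On log2(TPM + 1) limma called EPAS1 lower in 5 of the 8 comparisons (log2 fold change −0.62 to −0.28). With a trend over gene length removed, 1 of 8 was called (−0.23 to 0.06), which was PD-1/CD2 at −0.23, and PD-1/CTLA4 at −0.11 was not.

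Among the oxygen sensors, EGLN1 was higher and EGLN3 lower in protein-bearing hybrids. EGLN1 encodes PHD2, the prolyl hydroxylase that sets HIF-1α levels in most cells, and lies at chromosome 1, 231363751 to 231422287 (minus strand). It measured 83.3, 72.9 and 84.1 CPM without DSLBs, 71.1, 75 and 85.8 CPM with plain DSLBs and 117, 126 and 118 CPM with PD-1 alone. The 24 protein-bearing libraries ran from 106 through a median of 117 to 126 CPM, all above the highest control. EGLN1 rose in all 8 comparisons with plain DSLB hybrids, with log2 fold changes from 0.53 to 0.64 (0.64 with PD-1 alone, standard error 0.0738, edgeR adjusted p = 3.58e-07). On log2(TPM + 1) limma called it in 6 of the 8 (log2 fold change 0.26 to 0.54), and PD-1/CTLA4 (0.26) and PD-1/TIGIT (0.29) did not pass.

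EGLN3 encodes PHD3, another HIF prolyl hydroxylase, and lies at chromosome 14, 33924227 to 34462774 (minus strand). It measured 8.76, 10.4 and 8.61 CPM without DSLBs, 9.70, 8.82 and 10.6 CPM with plain DSLBs and 7.22, 7.31 and 6.94 CPM with PD-1 alone. The 24 protein-bearing libraries ran from 5.6 through a median of 7.27 to 9.87 CPM, and 21 of them were below the lowest control. EGLN3 was called lower in 5 of 8 comparisons with plain DSLB hybrids, with PD-1 alone, PD-1/CD2, PD-1/CD27, PD-1/ICOS and PD-1/TIGIT. Its log2 fold change was −0.50 with PD-1/TIGIT (standard error 0.137, edgeR adjusted p = 0.00905) and −0.28 with PD-1/LAG3 (adjusted p = 0.115), the ends of the range. With 166 to 594 counts per library it rested on fewer reads than any other member. All 5 calls were lost without plain DSLB replicate 3, the plain library with the highest EGLN3, with log2 fold changes from −0.43 to −0.34. Those with PD-1 alone, PD-1/CD27 and PD-1/ICOS were also lost without plain DSLB replicate 1. Each was lost, too, without at least 1 library of its own group, and over all these cases the log2 fold change lay between −0.45 and −0.31.

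VHL encodes the substrate receptor of the ubiquitin ligase that takes hydroxylated HIF-α to the proteasome, and lies at chromosome 3, 10141778 to 10153667. It measured 64.4, 57.4 and 61.9 CPM without DSLBs, 54.8, 60.7 and 60.1 CPM with plain DSLBs and 59.2, 54.4 and 56.7 CPM with PD-1 alone. The protein-bearing libraries, from 46.6 to 60.5 CPM, lay within the range of the controls except for 8 of 24 that were below it. Only PD-1/CD40L and PD-1/CTLA4 were called lower than plain DSLB hybrids, with log2 fold changes of −0.20 (standard error 0.0722, edgeR adjusted p = 0.0444) and −0.19 (adjusted p = 0.0456). Both calls sat near the threshold, and of 86 values re-computed under other settings 39 no longer passed, 32 of them after a single library was left out (log2 fold change −0.21 to −0.16).

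The 5 members taken only as targets, BNIP3, BNIP3L, NDRG1, ADM and DDIT4, were higher on average in protein-bearing hybrids. EGLN1 and EGLN3, genes that HIF can also raise, went opposite ways, as given above. BNIP3 had the highest ratio of medians between protein-bearing and control libraries, 1.99. BNIP3, a mitochondrial receptor for mitophagy and a classical HIF-1 target, lies at chromosome 10, 131967684 to 131981967 (minus strand). It measured 169.9, 181 and 164 CPM without DSLBs and 156, 176 and 184 CPM with plain DSLBs. With PD-1 alone it measured 373, 366 and 351 CPM, and over all 24 protein-bearing libraries it ran from 300.4 through a median of 343 to 427 CPM. The lowest protein-bearing library thus stood far above the highest control. The log2 fold change against plain DSLB hybrids was 1.08 with PD-1 alone (standard error 0.0943, edgeR adjusted p = 3.93e-09), or 2.11-fold, and lay between 0.87 and 1.10 over the 8 comparisons. Its promoter window, printed above, carried the most core motifs of the 7 members with a window, and a relation of motifs to levels was not tested.

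BNIP3L, a close relative of BNIP3 also called NIX that clears mitochondria during red cell maturation, lies at chromosome 8, 26383054 to 26505636. It measured 80.7, 68.5 and 79.2 CPM without DSLBs, 70.5, 78.3 and 82.1 CPM with plain DSLBs and 132, 124 and 115 CPM with PD-1 alone. The 24 protein-bearing libraries, from 106 through a median of 117 to 133 CPM, did not reach down to any control. BNIP3L rose in all 8 comparisons, by log2 fold changes of 0.56 to 0.69 (0.69 with PD-1 alone, standard error 0.0787, edgeR adjusted p = 3.03e-07).

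NDRG1, a hypoxia-induced gene linked to differentiation and metastasis suppression, lies at chromosome 8, 133237175 to 133302022 (minus strand). It measured 101, 99.5 and 82.9 CPM without DSLBs, 95.8, 104 and 114 CPM with plain DSLBs and 197, 209.8 and 187 CPM with PD-1 alone. Over the 24 protein-bearing libraries it ran from 144 through a median of 192 to 221 CPM, again without overlap with the controls. NDRG1 rose in all 8 comparisons, with a log2 fold change of 0.92 for PD-1 alone (standard error 0.0888, edgeR adjusted p = 2.04e-08), with PD-1/CD40L highest at 1.00 and PD-1/TIGIT lowest at 0.59.

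DDIT4, also called REDD1, restrains mTORC1 under hypoxia and other stresses and lies at chromosome 10, 72273919 to 72276036. It measured 167, 188 and 157 CPM without DSLBs, 155, 158 and 192 CPM with plain DSLBs and 255, 352 and 332 CPM with PD-1 alone. Over the 24 protein-bearing libraries it ran from 208 through a median of 319.7 to 441 CPM. All of them exceeded the highest control, but the groups were loose, with PD-1/LAG3 at 271, 315 and 441 CPM. DDIT4 rose in all 8 comparisons, with a log2 fold change of 0.89 for PD-1 alone (standard error 0.193, edgeR adjusted p = 0.00190) and ranged from 0.64 with PD-1/TIGIT to 1.06 with PD-1/CD40L. The PD-1/TIGIT call was lost without plain DSLB replicate 1 or 2 or PD-1/TIGIT replicate 2 or 3, with log2 fold changes from 0.52 to 0.61.

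ADM, the precursor of the vasodilator peptide adrenomedullin, lies at chromosome 11, 10305073 to 10307397. It measured 137, 164 and 123 CPM without DSLBs, 137, 133 and 145 CPM with plain DSLBs and 154, 195 and 193 CPM with PD-1 alone. Of the 24 protein-bearing libraries 21 were above the highest control, and the rest, the lowest of them PD-1/TIGIT replicate 1 at 129.8 CPM, lay among the controls. ADM was called higher with 5 of the 8 protein-bearing groups, CD2, CD27, CD40L, CTLA4 and LAG3 beside PD-1. The log2 fold change was 0.65 with PD-1/CTLA4 (standard error 0.170, edgeR adjusted p = 0.00515), 0.38 with PD-1 alone (adjusted p = 0.112) and 0.23 with PD-1/TIGIT (adjusted p = 0.362). The PD-1/LAG3 call was lost without PD-1/LAG3 replicate 3 (log2 fold change 0.35), the library that stood furthest apart and had the highest ADM, DDIT4 and BNIP3 of all 30. This call and those with PD-1/CD27 and PD-1/CD40L were also lost without plain DSLB replicate 1 or 2 and, for CD27 and CD40L, without their own replicate 2 or 3. The PD-1/CD27 call was lost without plain DSLB replicate 3 or PD-1/CTLA4 replicate 2 as well, and all these log2 fold changes lay between 0.44 and 0.55. On the log2(TPM + 1) scale limma called ADM in 1 of 8 comparisons.

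Summed over the 8 comparisons with plain DSLB hybrids, which share the same 3 control libraries, 62 of 80 member values passed, 45 higher and 17 lower, where 25.9% of all gene and comparison pairs passed. By comparison, 7 members were called with PD-1 alone (22% of all genes), 9 with PD-1/CD2 (29.6%), 8 with PD-1/CD27 (23.8%), 8 with PD-1/CD40L (25.5%), 9 with PD-1/CTLA4 (34.2%), 7 with PD-1/ICOS (19.6%), 7 with PD-1/LAG3 (30.3%) and 7 with PD-1/TIGIT (22.5%). EGLN1, BNIP3, BNIP3L, NDRG1 and DDIT4 were higher in all 8, as were 4.62% of all genes, and HIF1A was lower in all 8, as were 4.88% of all genes. With DSLB-free tumoroids as the control, 61 of 80 values passed, where 27.4% of all such pairs did. Over all 45 pairs of groups 124 of 450 member values passed, where 9.88% of all such pairs did.

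Several properties of the libraries moved with the protein. COL1A1 fell in 7 of the 8 comparisons with plain DSLB hybrids and COL3A1 in all 8, and the 5 fibroblast markers summed to 775 to 1083 CPM of the unscaled library in the controls and 359 to 708 in protein-bearing libraries. The fibroblast markers COL1A2 and DCN had median TPM values of 0.05 and 0.12. The 6 epithelial markers summed to 4375 to 5526 CPM in the controls and 5492 to 7239 CPM in protein-bearing libraries. Among them KRT8, KRT18 and KRT19 rose in all 8, while CDH1, the E-cadherin gene, fell in all 8. EPCAM fell in 4 of the 8, and KRT7 passed in none. Of the leukocyte markers, CD14 rose in all 8 at 0.238 to 1.12 CPM, and PTPRC fell in 2 at no more than 0.424 CPM. The mitochondrial share of counts did not separate the controls, at 3.19 to 5.19%, from protein-bearing libraries, at 1.71 to 7.0%. The part of these library properties in the members' changes was not tested.

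**Figure D2:**
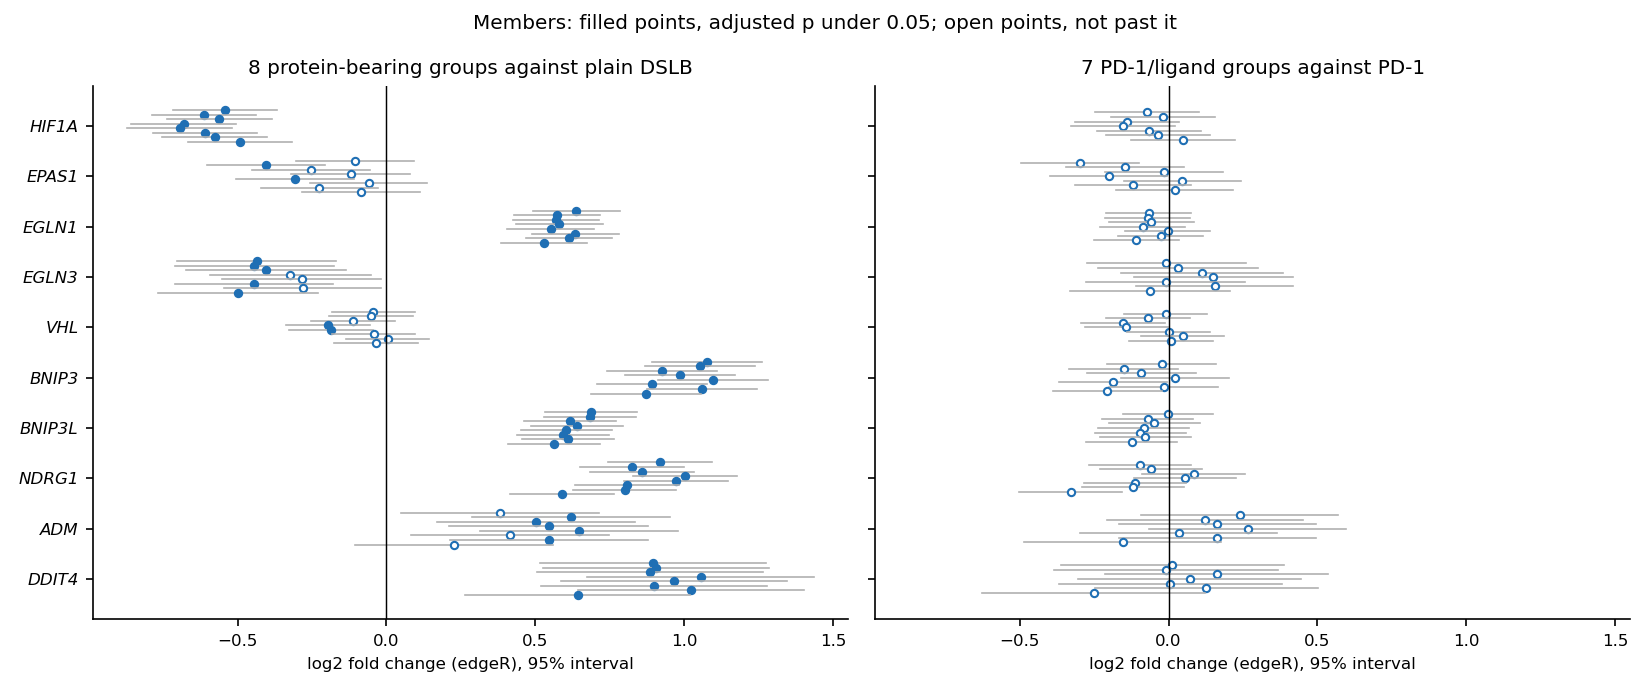
Log2 fold changes from edgeR (horizontal axis) of the 10 members (vertical axis) with 95% intervals as grey lines, for the 8 protein-bearing groups against plain DSLB hybrids (left) and the 7 PD-1/ligand groups against PD-1 hybrids (right). Filled points passed an adjusted p of 0.05 and open points did not: 62 of 80 are filled on the left and 0 of 70 on the right.

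DSLBs without protein gave no detectable change in the members. Between plain DSLB hybrids and DSLB-free tumoroids 0 of the 10 members passed edgeR's test or DESeq2's, and 0 had an unadjusted p under 0.05, where 0.0109% of all genes passed edgeR's adjusted test and 6.1% had an unadjusted p under 0.05. Their log2 differences lay between −0.06 for VHL and 0.15 for NDRG1. The 95% interval for BNIP3 was −0.18 to 0.19 and that for HIF1A −0.11 to 0.24. The upper bound for BNIP3 was below the smallest log2 fold change of a protein-bearing group, 0.87, while differences inside the intervals were not detectable at this depth and number of libraries.

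The mean of the 9 hybrid groups against DSLB-free tumoroids called 9 of 10 members, 6 higher and 3 lower, where 34.7% of all genes were called. NDRG1 had a log2 fold change of 0.90 (standard error 0.0710), BNIP3 of 0.89 (0.0752) and HIF1A of −0.46 (0.0635). EPAS1 had −0.17 and did not pass (edgeR adjusted p = 0.0731). This mean includes plain DSLB hybrids, which did not differ detectably from the control.

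The study's own question was what another ligand adds to PD-1. Over the 7 comparisons with PD-1 hybrids, which share the same 3 libraries, 0 of 70 member values passed edgeR's test, where 0.51% of all gene and comparison pairs passed. DESeq2 also called 0, and 4 of 70 had an unadjusted p under 0.05, where 10.9% of all pairs did. These 4 were single values of EPAS1, VHL, BNIP3 and NDRG1. The log2 differences lay between −0.33, NDRG1 with PD-1/TIGIT, and 0.27, ADM with PD-1/CTLA4. For EGLN1 the 95% intervals of all 7 differences lay within −0.25 and 0.14, and for BNIP3L within −0.28 and 0.15, whereas for DDIT4 they reached from −0.63 to 0.54.

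Ordering the 10 groups by their mean level placed both controls together at one end for every member except VHL. A single pair of neighbours differed by edgeR's test for HIF1A, EGLN1, BNIP3, BNIP3L, NDRG1 and DDIT4. In these 6 orders it was the step between a control and PD-1/TIGIT hybrids. For BNIP3 that step led from 172 ± 14.3 CPM (SD, n = 3) in plain DSLB hybrids to 315 ± 22.3 CPM (SD, n = 3) in PD-1/TIGIT hybrids (edgeR adjusted p = 1.41e-07). PD-1/TIGIT was the protein-bearing group nearest to the controls in all 6. For EPAS1, EGLN3, ADM and VHL no pair of neighbours differed.

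Among the 28 pairs of protein-bearing groups 1 of 280 member values passed, where 0.624% of all gene and comparison pairs did. It was NDRG1, at 163, 166 and 144 CPM with PD-1/TIGIT and 221, 219 and 189 CPM with PD-1/CD40L, groups whose libraries did not overlap. The log2 fold change was −0.41 (standard error 0.0879, edgeR adjusted p = 0.0287), in a comparison that called 0.635% of all genes (0.375% lower). The call was lost without PD-1/CD40L replicate 1 or 2 or any PD-1/TIGIT replicate, with log2 fold changes from −0.45 to −0.35.

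**Figure D3:**
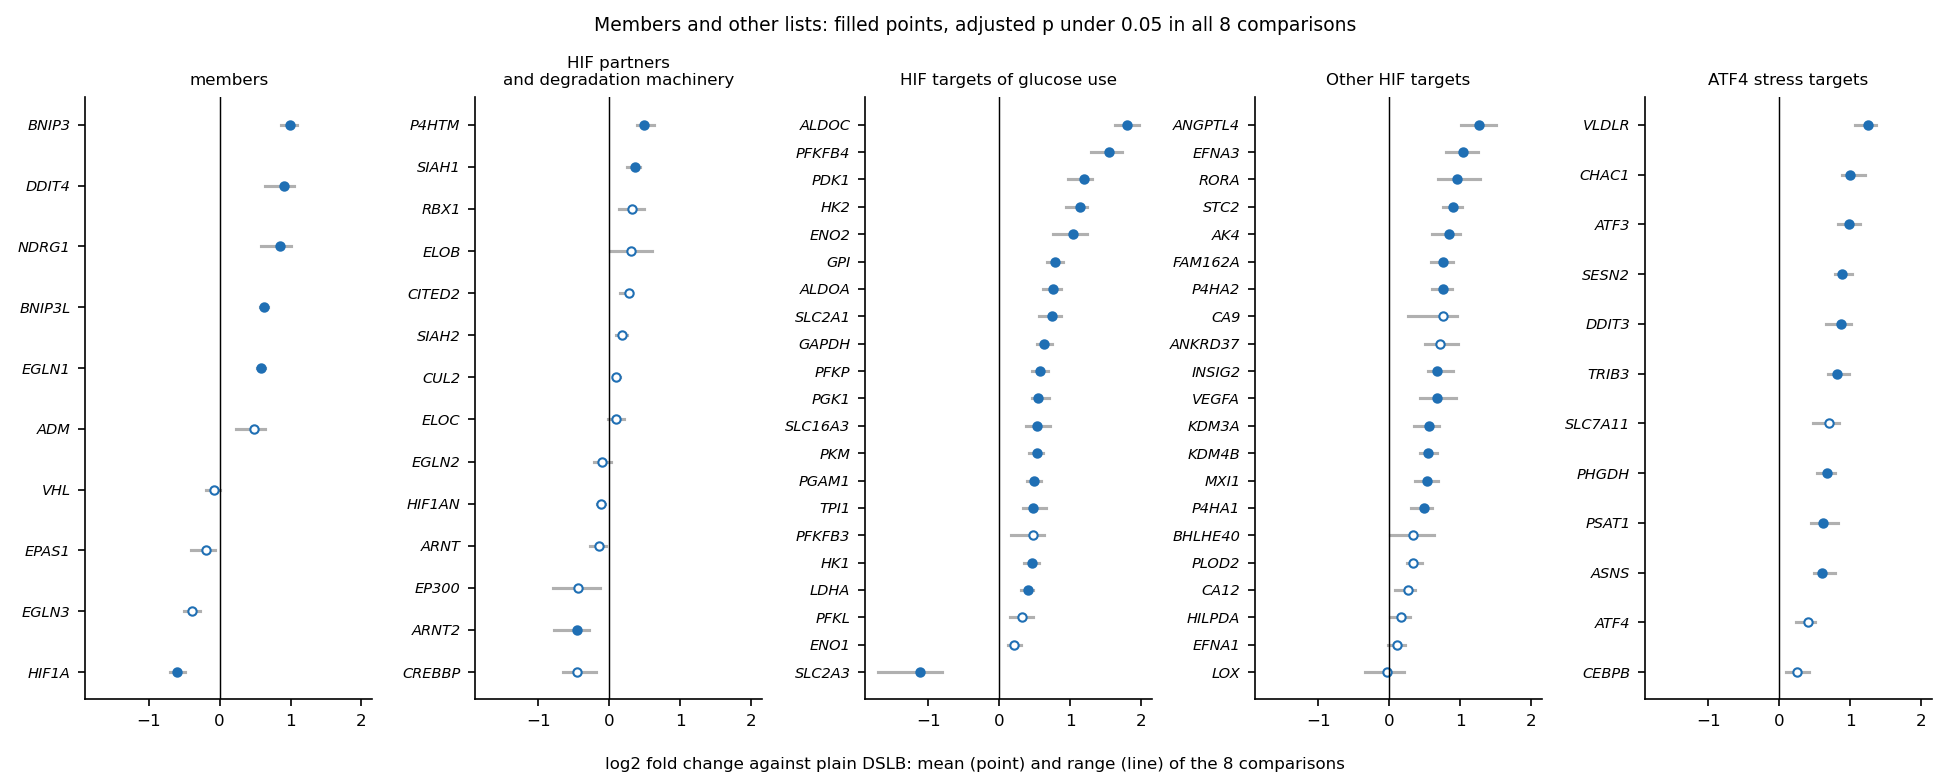
Log2 fold changes against plain DSLB hybrids (horizontal axis) for the members and 4 further gene lists (1 panel each, genes on the vertical axis). Points are the mean over 8 comparisons and lines their range, and filled points passed an adjusted p of 0.05 in all 8. ALDOC reaches 1.62 to 1.97, and SLC2A3 stands alone on the left of its panel at −1.71 to −0.81.

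Other genes of the pathway and its targets were read from further lists, chosen like the members with earlier results of these data known. Of 14 HIF partners and degradation genes tested, 2 were higher and 1 lower in all 8 comparisons with plain DSLB hybrids. Their median log2 fold change was 0.10 beside 0.01 for all genes. Of all genes tested, 4.62% were higher and 4.88% lower in all 8, shares that also apply to the lists below. SIAH1, a ubiquitin ligase that removes EGLN proteins, rose from 22.3 to 25.0 CPM in controls to 26.7 to 33.1 CPM, and P4HTM, a transmembrane prolyl hydroxylase, had log2 fold changes of 0.38 to 0.63. ARNT2, an alternative HIF partner, fell from 15.5 to 17.5 CPM to 9.0 to 14.2 CPM. CREBBP, a HIF co-activator, was lower in 6 of 8, and HIF3A was too low to be tested.

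Most HIF targets of glucose use rose. Of 21 tested, 17 were higher and 1 lower in all 8 comparisons, with a median of 0.54 beside 0.01 for all genes. ALDOC, a glycolytic aldolase, ran from 20.4 to 28.6 CPM in the 6 controls and from 65.6 to 105 CPM in the 24 protein-bearing libraries. PFKFB4, which sets the glycolytic regulator fructose 2,6-bisphosphate, had log2 fold changes of 1.29 to 1.72. PDK1, which keeps pyruvate out of mitochondria, had 0.97 to 1.30, and ENO2, an enolase, 0.75 to 1.24. SLC2A3, the glucose transporter GLUT3, went the other way (−1.71 to −0.81) at 0.366 to 1.77 CPM.

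Of 21 other HIF targets tested, 13 were higher and 0 lower in all 8 comparisons, with a median of 0.67. P4HA2, a collagen prolyl hydroxylase, had log2 fold changes of 0.60 to 0.88, AK4, a mitochondrial adenylate kinase, of 0.60 to 1.00, and KDM4B and KDM3A, histone demethylases, of 0.44 to 0.67 and 0.35 to 0.70. These 4 were named for their small p in the test of any difference over the same libraries. Their controls and protein-bearing hybrids did not overlap, as was so for 9.55% of all genes. VEGFA, CA9, CA12, ANKRD37, LOX, BHLHE40, EFNA1 and HILPDA of the same list did overlap. Of these, VEGFA was still called higher in all 8 comparisons (log2 fold change 0.43 to 0.94), CA9 in 7, ANKRD37 in 3 and BHLHE40 in 1. CA12, LOX, EFNA1 and HILPDA were called in 0.

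DDIT4 is also a known target of ATF4, the transcription factor of the integrated stress response, so ATF4 targets were read beside it. Of 12 tested, 9 were higher and 0 lower in all 8 comparisons, with a median of 0.77. ATF3, a stress transcription factor, ran from 4.86 to 7.79 CPM in controls and from 10.7 to 15.2 CPM in protein-bearing libraries. SESN2, another brake on mTORC1, had log2 fold changes of 0.79 to 1.03, VLDLR, a lipoprotein receptor, of 1.07 to 1.37, and ASNS, asparagine synthetase, of 0.49 to 0.78. With PD-1 hybrids as the reference, 0 of 147 values for glucose use and 0 of 84 for ATF4 targets passed. For other HIF targets 1 of 147 passed and for partners 1 of 98, where 0.51% of all gene and comparison pairs did.

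Pairs of members were also compared within the protein-bearing hybrids. Because the levels of 6 members did not overlap between controls and protein-bearing hybrids, correlations of log2 CPM were taken over the 24 protein-bearing libraries. A 2-sided permutation test of Pearson's r passed in 18 of 45 pairs after Benjamini-Hochberg adjustment, 12 positive and 6 negative. The weakest of these had an absolute r of 0.513, a size that 40% of member pairs and 10.6% of all pairs of the 18424 genes reached. The permutations treat libraries as exchangeable, although ADM and DDIT4, as given further on, differed by replicate number. ADM and DDIT4 gave the highest value (Pearson r = 0.91, Spearman rho = 0.89, permutation adjusted p = 0.000112 and 0.000225) and kept r = 0.86 without the 2 libraries farthest from the median of ADM. HIF1A ran against ADM (r = −0.82, rho = −0.83, permutation adjusted p = 0.000112 and 0.000225, r = −0.78 without the 2 farthest). EGLN3, although lower than in controls, was higher in libraries where DDIT4 was higher (r = 0.78, rho = 0.71, permutation adjusted p = 0.000112 and 0.00157, r = 0.61 without the 2 farthest).

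Some pairs moved by library rather than by group. Taken as deviations from group means, 22 pairs passed, with an absolute r of at least 0.473, which 17.7% of all gene pairs reached. ADM and DDIT4 then gave r = 0.97 and rho = 0.94, EGLN3 and BNIP3 r = 0.85 and rho = 0.82, and EGLN1 and NDRG1 r = 0.82 and rho = 0.81, each with a permutation adjusted p = 7.5e-05 for both measures. The permutations ignored the groups, although deviations within a group are tied through its mean, so p-values for deviations are too small. On log2(TPM + 1), without taking deviations from group means, 14 pairs passed, 1 of them negative. ADM and DDIT4 had r = 0.92 there, beside 0.91 on log2 CPM taken in the same way. EGLN3 and BNIP3 had r = 0.17 (permutation adjusted p = 0.521), beside 0.76 on log2 CPM. EGLN1 and NDRG1 had r = 0.13 (permutation adjusted p = 0.628), beside 0.52. Deviations from group means were not correlated on TPM.

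ADM and DDIT4 also differed by replicate number, a pattern looked at after their values were seen. Both were lowest in replicate 1 in 8 of the 8 protein-bearing groups. DDIT4 ran from 208 through a median of 268 to 292 CPM in the 8 libraries numbered 1 and from 275 through 335 to 441 CPM in the other 16. ADM ran from 129.8 through 166 to 197 CPM and from 173 through 211 to 254 CPM. A replicate term in an edgeR model of the 24 libraries passed for ADM (adjusted p = 0.00101) and DDIT4 (adjusted p = 0.00430) and for none of the other 8 members, where it passed for 0.538% of all genes. Over all 30 libraries both still passed (edgeR adjusted p = 0.0458 and 0.0304), where 0.0651% of all genes did. The labels name no batch or date for these numbers, and their part in the spread of DDIT4 and ADM was not tested.

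**Figure D4:**
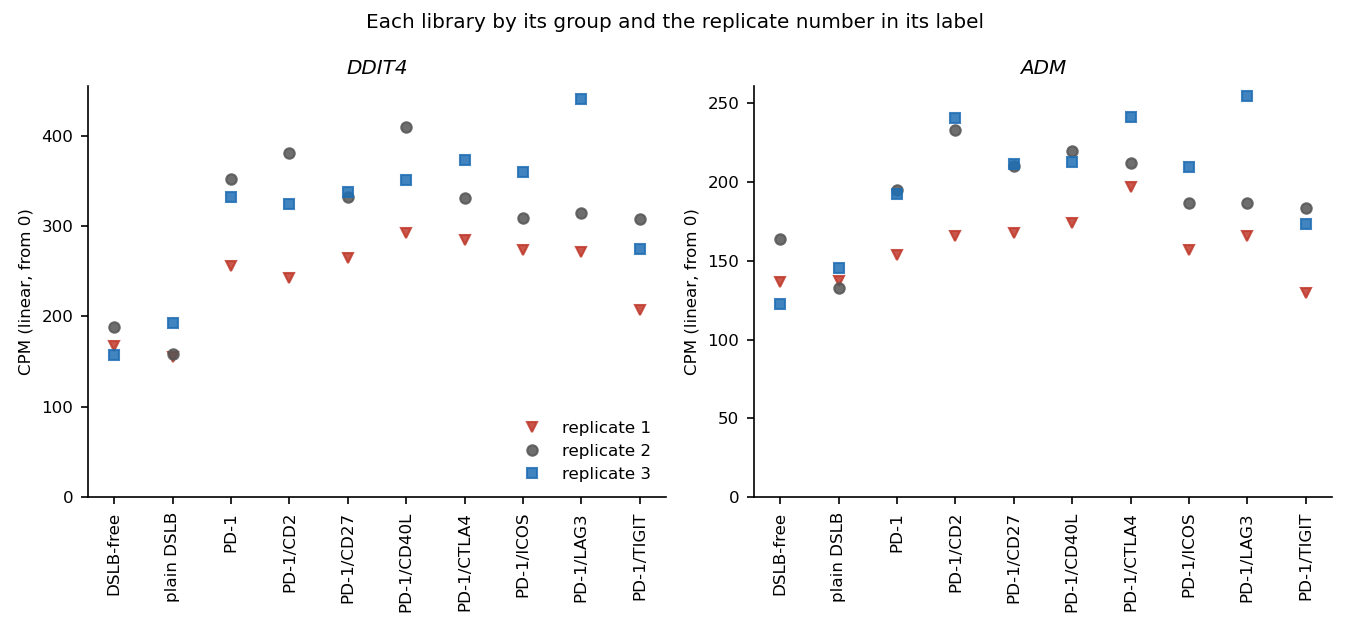
DDIT4 and ADM in CPM (vertical axes, linear from 0) by group on the horizontal axis, with 1 marker shape for each replicate number. In the 8 protein-bearing groups the marker of replicate 1 is the lowest of the 3, at 208 to 292 CPM for DDIT4 and 129.8 to 197 CPM for ADM.

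Over all 30 libraries the genes most like a member by Pearson r, among 12667 others with a mean count of at least 100, included further HIF targets. EGLN1 was most like BNIP3L (r = 0.97), PDK1 and HK2, and NDRG1 was most like PTPRH (r = 0.97), FOXL1 and ALDOC. BNIP3 was most like SMIM3 (r = 0.97), TSC22D3 and FAM162A. ADM was most like ELF3 (r = 0.94), ANKRD37 and DDIT4, and DDIT4 was most like DEPP1 (r = 0.96), ANGPTL4 and IER5L. HIF1A was most like ATAD2 (r = 0.97), EDIL3 and FRMD6. EPAS1, EGLN3 and VHL had lower best values, with PRRC2A (r = 0.91), SOCS3 (r = 0.87) and SOCS5 (r = 0.85). These are descriptions over libraries that share the step between controls and protein-bearing hybrids.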

How the data were processed

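RNA of 30 PANC-1 cultures was sequenced by the authors, who aligned reads to hg38 with STAR and quantified genes with RSEM; Trim Galore 0.3.3, SAMtools 1.3.1 and FastQC 0.11.2 stand in the submitters' processing notes. The deposited files give expected counts, which RSEM estimates and which need not be whole, and TPM as made by the authors, with an effective length per gene, for 60483 records, of which 56321 matched a symbol by gene ID. Libraries were made with a directional kit, per the labels. Not given in the sources used here are the strand setting of the counting, the annotation release and the RNA selection step, so values of genes with an antisense or overlapping partner are uncertain.

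Expected counts were rounded and tested with edgeR 4.0.16 in R 4.3.3 (filterByExpr, TMM, robust quasi-likelihood fit, 1 model of all 30 libraries, Benjamini-Hochberg adjustment over 18424 genes), where the study's methods used DESeq2 on pairs of groups. Standard errors are the log2 fold change divided by the square root of F. DESeq2 1.42.0, limma 3.58.1 with voom, limma on log2(TPM + 1), other filters and scalings, a replicate block and leaving out single libraries were alternatives. Correlations used 100000 permutations (scipy 1.17.1), of which the smallest possible p is 1e-05. The tests were checked on simulated data. Figures were drawn with matplotlib 3.10.9.

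Depth was 21.9 to 60.5 M counts per library, and members had 166 to 23100 counts, the lowest in EGLN3, where counting error weighs most. The biological coefficient of variation was 0.0942. The lowest chi-square per gene within a group was 3.52, so no library was counted as deposited in duplicate. Gene positions are from GENCODE v44 and promoter windows from RefSeq, both on GRCh38.

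The members and lists were chosen with earlier results of these data known. All 10 members are described. From each other pathway list up to 4 genes are named, those past the test of any difference with the smallest p first, and for each member the 3 genes with the highest Pearson r. Marker genes are named where they move with the groups. One gene of the list of other HIF targets is not reported here and was left out of that list's counts.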

Additional observations from a re-analysis of the deposited data

Results flagged for a closer look

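NDRG1 was singled out because its change differed between 2 co-presented ligands. It was lower with PD-1/TIGIT than with PD-1/CD40L, with a log2 fold change of −0.41 (95% interval −0.59 to −0.24, or 0.751-fold). Libraries of the 2 groups did not overlap. It was the 1 call among 280 member values for pairs of protein-bearing groups, where 0.624% of all gene and comparison pairs passed, so such calls were no more frequent in the members than in all genes. DESeq2 (adjusted p = 0.00208) and limma-voom (adjusted p = 0.0356) also called it. The call was lost without any 1 of 5 of the 6 libraries compared and in all 3 fits of TPM with limma (adjusted p = 0.296 on log2(TPM + 1)). Over all alternatives the log2 fold change ran from −0.48 to −0.25 and the adjusted p from 0.000346 to 0.490.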

How the results depend on the processing

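Against plain DSLB hybrids, HIF1A, BNIP3 and NDRG1 kept their direction and stayed past the threshold in all 344 values re-computed for each, and BNIP3L in 343 of 344. EGLN1 was lost in 8 of 344 values, all of them on TPM, DDIT4 in 6 of 344, ADM in 28 of 215, EGLN3 in 16 of 215, EPAS1 in 5 of 86 and VHL in 39 of 86. None of these values reversed. Member calls against plain DSLB hybrids ranged from 53 to 66 of 80 over the settings that kept all libraries. Leaving out single libraries gave 53 to 63 calls there, 8 to 10 members past the test of any difference, 7 to 10 for the mean of hybrids against DSLB-free tumoroids, 0 for plain DSLB hybrids against DSLB-free tumoroids and 114 to 129 over the 45 pairs of groups. Against PD-1 hybrids the 0 calls became 2 without a filter on low counts, and 0 to 1 when single libraries were left out, with 1 only without PD-1/CD2 replicate 1; the cause was not tested. Correlations passing numbered 37 of 45 when all 30 libraries, controls and protein-bearing hybrids, were pooled.

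Without the 3 libraries that stood furthest apart, and without those and PD-1/CTLA4 replicate 2, a choice made after seeing the data, calls against plain DSLB hybrids were 66 and 65, and those against PD-1 hybrids 0 and 0. On log2(TPM + 1) the median of all genes shifted by −0.14 to −0.05 on the log2 scale.

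The study's methods describe parallel sets of cultures without tying them to the replicate numbers. Of the correlations between same-numbered libraries, 17 of 135 were over 0.1, and 13 of 30 libraries correlated best with their own number. With a replicate block the calls were 10 members for any difference, with VHL now among them, 64 against plain DSLB hybrids, 0 against PD-1 hybrids, 0 for plain DSLB hybrids against DSLB-free tumoroids, 9 for hybrids against DSLB-free tumoroids and 130 over the 45 pairs.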
